A study of Mus musculus with 9 samples.

Results

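Caveolae, T tubules and membrane repair were examined through 10 genes listed by name for these roles: the caveolins Cav1, Cav2 and Cav3, the cavins Cavin1 and Cavin4, the T-tubule genes Bin1 and Mtm1, and the membrane repair genes Dysf, Myof and Ano5. Of these 10 genes, 9 had a row on the array that carries their symbol alone, and each had exactly 1 such row. They are 9 of 19938 genes measured this way. Ano5, which encodes an anoctamin of striated muscle, had no such row and its expression was not analysed here. The samples were primary cultures of the stromal vascular fraction (SVF), the mixed cells left once mature fat cells are removed from adipose tissue, taken from subcutaneous fat of C57BL6/J mice aged 10 weeks. The cells were kept in a minimal growth medium with no added treatment, gene transfer or drug in any group. Beating SVF (n = 4) consisted of hand-picked beating colonies of day 28. Non-beating SVF (n = 4) consisted of the other cells of the dishes on day 28. Round cells were 1 pool of 6 cells of day 14, picked singly with an automated cell picker. Picking can carry neighbouring cells along, and the round pool has no replicate. RNA was amplified and read on Affymetrix Mouse Gene 1.0 ST arrays, and each value is a log2 signal of 1 of 33323 rows.

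Caveolae are small flask-shaped pits of the plasma membrane, built from caveolins that sit in the membrane and cavins that coat it from the inside. Cav1 and Cav2 are the caveolins of fat cells, endothelium and fibroblasts, whereas Cav3 is the caveolin of heart and skeletal muscle. T tubules carry the action potential from the surface of a muscle cell to its calcium stores, and Cav3 and the membrane-bending protein Bin1 take part in forming them. When a muscle membrane tears, the calcium-binding ferlin Dysf helps vesicles to seal it.

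Of the 9 measured genes, 4 were higher and 0 were lower in beating than in non-beating SVF at a Benjamini-Hochberg adjusted p under 0.05 in limma's moderated test over all rows, and 5 did not pass. Over all rows, 2.82% were called higher and 3.34% lower. The 4 called genes were Cavin4, Bin1, Cav3 and Dysf, and in each of them all 4 beating arrays lay above all 4 non-beating arrays, which held for 5.98% of all rows. The 5 others were Cav1, Cav2, Cavin1, Mtm1 and Myof, all with a lower mean in beating SVF. For none of these 5 did the groups separate, whereas beating lay wholly below non-beating in 8.24% of all rows. The median log2 fold change over the 9 genes was -0.14, beside 0.0073 over all rows. In bulk samples, fewer cells of a type and less RNA per cell cannot be told apart. Per the study's methods, each beating sample drew on dishes of a single SVF lot. The other cells of a dish went to non-beating SVF. No source used here says which samples shared dishes or a lot, so the fit did not pair them. The p-values measure the spread among these arrays, which may be technical. Centring each array on its median gave 837 rows called higher and 1617 lower, against 940 higher and 1114 lower on the deposited values, and the same 4 genes were called.

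**Figure D1:**
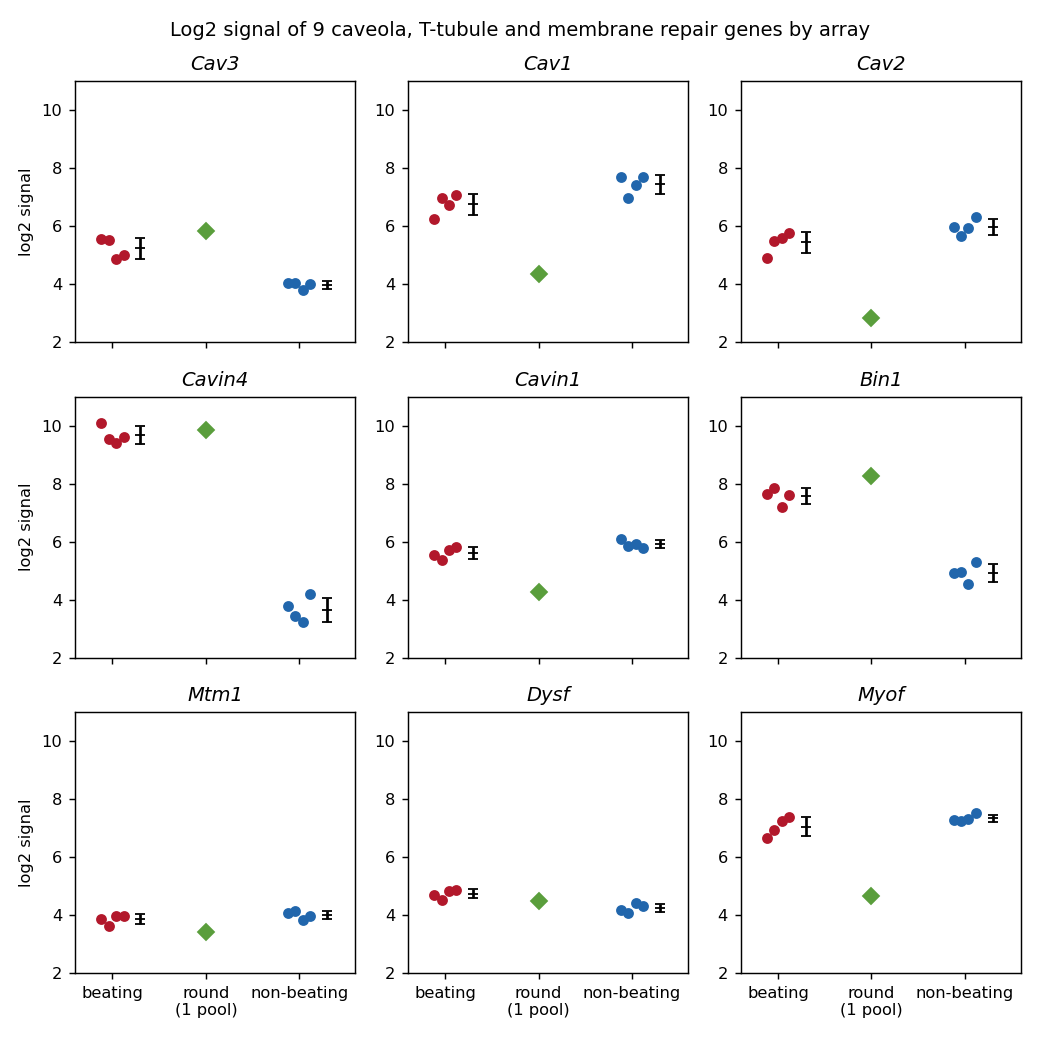
Log2 signal of the 9 measured genes on each array (points), with the mean and SD of the 4 beating and the 4 non-beating arrays beside them, and the single round pool as a diamond. Cavin4, Bin1, Cav3 and Dysf have all beating points above all non-beating points, and the round pool lies below all 8 other arrays for Cav1, Cav2, Cavin1, Mtm1 and Myof.

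Muscle markers set the groups apart and markers of other cells differed too. Of 12 striated muscle markers, 11 were higher in beating SVF, and the log2 of their summed signal was 13.40 to 13.65 in beating, 13.74 in round and 7.84 to 8.44 in non-beating samples. The summed fibroblast markers (3 of 10 called lower) lay at 11.73 to 12.15 in beating, 8.05 in round and 12.47 to 12.99 in non-beating samples. The summed adipocyte markers (3 of 9 called lower) lay at 8.30 to 9.04 in beating, 6.95 in round and 10.16 to 10.44 in non-beating samples, and Lep, Cidec and Lipe stood at or under the array median on all 8 beating and non-beating arrays. None of 10 endothelial markers was called, with sums of 7.07 to 9.92 in beating, 6.89 in round and 8.45 to 10.16 in non-beating samples. Of 10 smooth muscle and pericyte markers, 1 was called higher, with sums of 10.28 to 11.08 in beating, 8.11 in round and 10.82 to 11.16 in non-beating samples. Of 10 macrophage markers, 1 was called lower, with sums of 6.86 to 9.87 in beating, 7.19 in round and 9.74 to 11.46 in non-beating samples. Beating replicate 1 had the lowest adipocyte, endothelial, smooth muscle and macrophage sums of its group. The median signal of an array was 3.08 to 3.17 on day 28 and 3.54 in the round pool.

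Cav3, the muscle caveolin, was higher in beating SVF. Its log2 signals were 5.55, 5.53, 4.86 and 4.99 in beating SVF, against 4.03, 4.06, 3.79 and 4.02 in non-beating SVF. The groups did not overlap, with a gap of 0.80 between the lowest beating and the highest non-beating array, and beating replicates 1 and 2 stood above replicates 3 and 4. The means were 5.23 ± 0.36 in beating and 3.98 ± 0.13 in non-beating SVF (SD, n = 4 each), a log2 fold change of 1.26 (SE 0.17, 95% interval 0.86 to 1.65) or 2.39-fold, with an adjusted p of 0.00579. Array signals carry background, and the non-beating mean of Cav3 ranked at percentile 64.2 of its arrays, so the fold in transcripts is not known. Cav3 stood at percentile 77.0 in beating SVF and 2.23% of rows had a larger change in either direction. The 11 called striated muscle markers moved with Cav3, as with Cavin4, Bin1 and Dysf, and their part in these results was not tested.

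Cav3 lies at 112459505 to 112472872 on chromosome 6 (GRCm38.p6). Promoter windows from RefSeq (250 bases before to 50 after the start) were searched on both strands for the E-boxes CAGCTG and CAGGTG (complement CACCTG), a letter pattern that muscle regulators of the MyoD family can bind, and for CTANNNNTAG, the core of sites for MEF2 factors. Those of Cav3, Cavin4 and Cav1 are shown because these are the muscle caveolin, the muscle cavin and the main non-muscle caveolin, and their 250 bases before the start are given 5′ to 3′ with E-boxes in capitals.
Cav3 (chr6:112459255-112459504, plus strand): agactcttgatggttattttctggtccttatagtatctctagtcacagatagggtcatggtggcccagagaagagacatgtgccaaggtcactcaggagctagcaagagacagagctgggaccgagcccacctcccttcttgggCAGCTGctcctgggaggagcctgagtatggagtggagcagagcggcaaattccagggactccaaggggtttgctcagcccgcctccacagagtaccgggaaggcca
Cavin4 (chr4:48663264-48663513, plus strand): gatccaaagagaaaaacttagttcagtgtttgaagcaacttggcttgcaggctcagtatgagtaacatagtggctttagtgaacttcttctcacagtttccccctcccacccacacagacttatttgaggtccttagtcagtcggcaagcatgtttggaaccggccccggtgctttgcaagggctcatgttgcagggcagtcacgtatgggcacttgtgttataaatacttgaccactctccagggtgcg
Cav1, the downstream of its 2 annotated starts (chr6:17307390-17307639, plus strand): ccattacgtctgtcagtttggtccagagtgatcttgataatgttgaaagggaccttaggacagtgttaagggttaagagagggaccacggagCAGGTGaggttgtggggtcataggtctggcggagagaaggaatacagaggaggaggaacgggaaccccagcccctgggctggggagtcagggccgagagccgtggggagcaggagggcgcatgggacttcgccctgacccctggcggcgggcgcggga
Cav3 held 1 CAGCTG, which begins 106 bases before the start, and 16.3% of all 32851 promoter windows held this pattern. Cavin4 held none of the 3 patterns. Cav1 held 1 CAGGTG, 158 bases before its downstream start and none at its other start. CAGGTG was also in the window of Ano5 and in 1 window of Mtm1, so in 3 of the 14 windows of these genes, and 20.2% of all windows held it. Cav2, Cavin1, Dysf and Myof held neither E-box, and Bin1 had no window. CTANNNNTAG was in 0 of the 14 windows and in 3.69% of all windows. A match is a description of the letters and says nothing about binding.

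Cav1, the caveolin without which non-muscle caveolae do not form, had its means in the opposite order. Its log2 signals were 6.25, 6.97, 6.73 and 7.06 in beating SVF, against 7.69, 6.98, 7.42 and 7.68 in non-beating SVF. The groups met at 1 point, where beating replicate 4 stood above non-beating replicate 2. Cav1 averaged 6.75 ± 0.36 in beating and 7.44 ± 0.33 in non-beating SVF (SD, n = 4 each). The log2 fold change was -0.69 with a 95% interval of -1.19 to -0.19, and although this interval excludes 0, the adjusted p over all rows was 0.115. With values under the array median raised to that median the adjusted p was 0.0365, the only alternative of 19 that called Cav1, and a setting under which 16156 rows were called higher.

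Cav2, which pairs with Cav1 in hetero-oligomers, lies next to it on chromosome 6 (17281185 to 17289130, with Cav1 at 17306335 to 17341328). Cav2 stood at 4.92, 5.48, 5.59 and 5.77 in beating SVF, against 5.98, 5.65, 5.92 and 6.32 in non-beating SVF. Again the highest beating array lay above the lowest non-beating array. The log2 fold change was -0.53 (95% interval -0.998 to -0.055), with an adjusted p of 0.190. Beating replicate 1 was the lowest array for Cav1 and for Cav2, as it was for the sums of adipocyte, endothelial, smooth muscle and macrophage markers. Without it the log2 fold changes were -0.52 for Cav1 and -0.35 for Cav2, and neither passed. Fibroblast and adipocyte marker sums also lay wholly lower in beating SVF, and the part of these markers in these and the other lower values was not tested.

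Cavin4, the cavin of heart and skeletal muscle, had the widest difference of the 9 genes. Its log2 signals were 10.10, 9.55, 9.41 and 9.62 in beating SVF, against 3.77, 3.44, 3.23 and 4.18 in non-beating SVF. The gap between the groups was 5.22, far wider than the range within either group. Cavin4 averaged 9.67 ± 0.30 in beating and 3.66 ± 0.42 in non-beating SVF (SD, n = 4 each), a log2 fold change of 6.01 (SE 0.23, 95% interval 5.49 to 6.54) and a 64.6-fold ratio of signals, with an adjusted p of 4.55e-06. It ranked 20 from the highest of 33323 rows by fold change, and 0.0570% of rows had a larger absolute change. On the non-beating arrays Cavin4 lay 0.14 to 1.09 above the array median, so the background bounds what the ratio can say about transcripts. Cavin4 is at 48663514 to 48673492 on chromosome 4.

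Cavin1, the cavin that every caveola coat needs, did not follow Cavin4. Its log2 signals were 5.56, 5.36, 5.73 and 5.82 in beating SVF, against 6.11, 5.85, 5.93 and 5.77 in non-beating SVF. Beating replicate 4 lay above non-beating replicate 4, so the groups overlapped. The means of 5.62 ± 0.20 in beating and 5.91 ± 0.14 in non-beating SVF (SD, n = 4 each) gave a log2 fold change of -0.30 (95% interval -0.57 to -0.026) and an adjusted p of 0.198. Cavin1 lies at 100956736 to 100970617 on chromosome 11.

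Bin1, an amphiphysin that bends membrane into tubules, was higher in beating SVF. Its log2 signals were 7.65, 7.84, 7.19 and 7.63 in beating SVF, against 4.91, 4.95, 4.53 and 5.32 in non-beating SVF. All 4 beating arrays stood at least 1.88 above every non-beating array. Bin1 averaged 7.58 ± 0.27 in beating and 4.93 ± 0.32 in non-beating SVF (SD, n = 4 each), a log2 fold change of 2.65 (SE 0.19, 95% interval 2.22 to 3.09) or 6.29-fold, with an adjusted p of 0.000165. Bin1 ranked 143 from the highest of all rows by fold change. The gene is spliced differently in muscle and other cells, and a row that sums over its exons does not separate these forms.

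Mtm1 encodes myotubularin, a lipid phosphatase that acts with Bin1 in muscle. It stood at 3.89, 3.65, 3.98 and 3.98 in beating SVF, against 4.08, 4.15, 3.85 and 3.99 in non-beating SVF. The ranges of the groups overlapped in part. The log2 fold change was -0.14 (95% interval -0.37 to 0.088) and the adjusted p was 0.489, and this interval holds no change as large as that of any of the 4 called genes. Mtm1 lies at 71210767 to 71315413 on chromosome X.

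Dysf, which encodes dysferlin, was higher in beating SVF by a small margin. Its log2 signals were 4.70, 4.54, 4.83 and 4.89 in beating SVF, against 4.19, 4.09, 4.42 and 4.32 in non-beating SVF. The groups were separate, but only 0.12 lay between beating replicate 2 and non-beating replicate 3. Dysf averaged 4.74 ± 0.15 in beating and 4.26 ± 0.14 in non-beating SVF (SD, n = 4 each), a log2 fold change of 0.48 (SE 0.10, 95% interval 0.25 to 0.72) or 1.40-fold, with an adjusted p of 0.0328. The call was lost without beating replicate 1, 3 or 4 and without non-beating replicate 1, 2 or 4, at adjusted p values between 0.0590 and 0.0909, and with the pooled-variance test of the study's methods after adjustment (0.0855). The log2 fold change lay between 0.43 and 0.55 in all 19 alternatives. Dysf is at 84008361 to 84211060 on chromosome 6.

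Myof, a ferlin of myoblasts, endothelium and other non-muscle cells, did not pass. It stood at 6.66, 6.94, 7.26 and 7.39 in beating SVF, against 7.29, 7.27, 7.33 and 7.53 in non-beating SVF. Beating replicates 1, 2 and 3 were below every non-beating array, while replicate 4 was above 3 of the 4. The log2 fold change was -0.29 (95% interval -0.66 to 0.071), with an adjusted p of 0.349. Without beating replicate 1, again the lowest array, it was -0.16. Myof lies at 37899036 to 38043577 on chromosome 19.

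**Figure D2:**
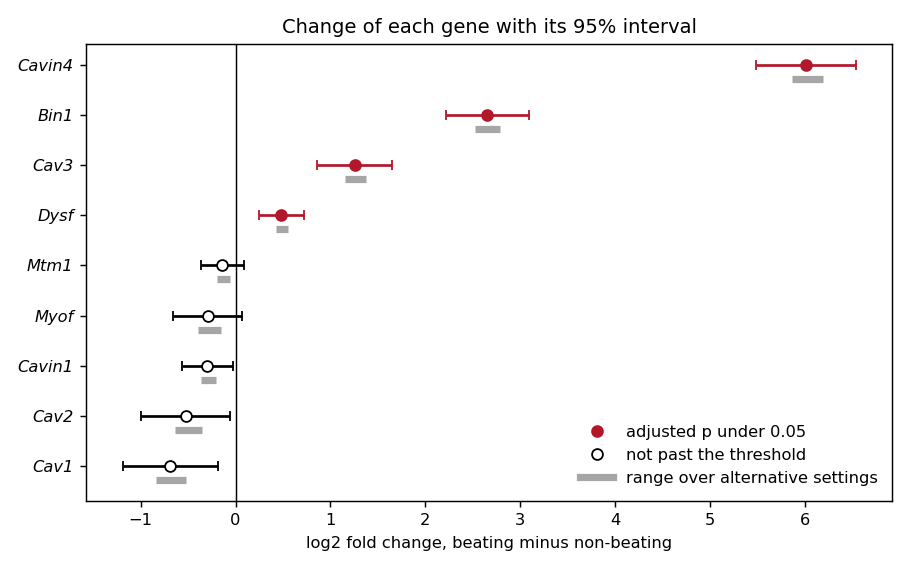
Log2 fold change of each gene, beating minus non-beating, with its 95% interval from limma, and below it the range over 19 alternative settings as a grey bar. Filled points passed an adjusted p of 0.05. Cavin4 lies at 6.01, Bin1 at 2.65, Cav3 at 1.26 and Dysf at 0.48, and the other 5 genes lie between -0.69 and -0.14.

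Genes that work with these 9 were listed by role, 72 in all, and 69 had a row. Of the 69, 8 were higher and 6 lower in beating SVF, 55 did not pass, and their median log2 fold change was -0.0063, beside 2.82% of all rows higher and 3.34% lower. Leaving out 1 array at a time gave 5 to 7 partners higher and 2 to 7 lower. Listed genes with no row of their own symbol were not analysed here. Partner values are log2 signals, given as mean ± SD with n = 4 each, with the log2 fold change in parentheses.

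The T-tubule and triad list held most of the rises, with 5 of its 11 measured genes higher, 0 lower and a median log2 fold change of 0.54. Popdc3, a cAMP-binding membrane protein of striated muscle, averaged 7.30 ± 0.36 in beating and 3.31 ± 0.38 in non-beating SVF (log2 fold change 3.99, adjusted p = 4.57e-05). Jph1, a junctophilin that ties the T tubule to the sarcoplasmic reticulum, averaged 9.35 ± 0.29 in beating and 6.91 ± 0.29 in non-beating SVF (2.44, adjusted p = 0.000229), and the row of Jph1 with the lower signal gave 1.45 (adjusted p = 0.00201). Tcap, the titin-cap protein of the Z-disc, averaged 4.85 ± 0.35 in beating and 3.15 ± 0.32 in non-beating SVF (1.69, adjusted p = 0.00382). In these genes no beating array overlapped a non-beating one. Stac3, a partner of the voltage sensor of skeletal muscle, averaged 3.82 ± 0.44 in beating and 2.79 ± 0.18 in non-beating SVF (1.03, adjusted p = 0.0308), and it kept its call under omission of an array only without beating replicate 4 (adjusted p 0.0585 to 0.0859 in the other omissions). Jph2, another junctophilin, was the other call, with a log2 fold change of 0.83 (adjusted p = 0.00484).

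Among the caveola partners, 2 of 12 were higher and 1 was lower, with a median log2 fold change of 0.0093. Cavin3 averaged 5.94 ± 0.31 in beating and 6.93 ± 0.07 in non-beating SVF, a log2 fold change of -0.98 (1.97-fold lower, adjusted p = 0.00855), and its call held in all 8 fits that left out 1 array. Cavin3 thus fell where Cavin4 rose. Cavin2, named here after its value was seen because it is the remaining cavin, averaged 5.56 ± 0.27 in beating and 6.31 ± 0.30 in non-beating SVF (-0.75, adjusted p = 0.0502) and did not pass. Ehd4, an ATPase of membrane traffic, averaged 6.47 ± 0.38 in beating and 5.25 ± 0.42 in non-beating SVF (1.22, adjusted p = 0.0296), and its call held only without beating replicate 3 or non-beating replicate 4 (0.0514 to 0.0856 in the other omissions). Pacsin2, an F-BAR protein found at caveolae, averaged 6.16 ± 0.21 in beating and 5.59 ± 0.19 in non-beating SVF (0.57, adjusted p = 0.0438), and lost its call in all 8 fits that left out 1 array (0.0535 to 0.114) and with arrays centred on their medians.

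Trim72 led the membrane repair partners. It encodes MG53, a muscle protein that gathers vesicles at membrane tears, and stood at 5.16, 5.05, 5.03 and 5.00 in beating SVF, against 2.94, 2.66, 3.07 and 2.92 in non-beating SVF. The beating arrays lay within a narrow band far above the non-beating arrays, which were below their array medians. The log2 fold change was 2.16 (SE 0.092, adjusted p = 7.3e-06), a 4.48-fold ratio of signals, and with non-beating signals this low the fold in transcripts is not known. The other 12 measured genes of the list held 1 call, Vps4b, an ATPase of the ESCRT machinery, at 7.78 ± 0.34 in beating and 8.55 ± 0.04 in non-beating SVF (-0.78, adjusted p = 0.0277). Vps4b kept its call only without beating replicate 1, 3 or 4 (0.0657 to 0.0799 in the other omissions).

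Annexins, which bind membrane phospholipid in the presence of calcium, were lower where called, in 3 of 9 genes, with a median log2 fold change of -0.26. The fitted change was below 0 in 6 of the 9 and above 0 in 3. Those above 0 reached 0.51, and 0 of them passed. Anxa4 averaged 6.51 ± 0.14 in beating and 7.04 ± 0.14 in non-beating SVF (-0.53, adjusted p = 0.0197), a call lost without non-beating replicate 2 or 3 (0.0547 and 0.0650). Anxa1 averaged 8.92 ± 0.10 in beating and 9.43 ± 0.22 in non-beating SVF (-0.51, adjusted p = 0.0391). Anxa5 averaged 8.77 ± 0.18 in beating and 9.15 ± 0.06 in non-beating SVF (-0.39, adjusted p = 0.0490). Anxa1 kept its call only without beating replicate 1 or non-beating replicate 1 and Anxa5 only without beating replicate 1 or 4, at up to 0.0956 and 0.135 in the other omissions. All 3 calls were lost with the methods' two-sample test, and those of Anxa1 and Anxa5 also under quantile normalisation. Anxa5 further lost its call with either alternative variance model and with the replicate number as a block.

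The families of Mtm1, Dysf and Ano5 held 1 call among 25 measured genes. In the myotubularin family, 1 of 12 was lower, with a median of -0.07. That gene was Mtmr9, a myotubularin without phosphatase activity, at 6.30 ± 0.11 in beating and 7.16 ± 0.35 in non-beating SVF (-0.85, adjusted p = 0.0239). Its other row gave -0.02 (adjusted p = 0.909), and its call held only without beating replicate 1 or non-beating replicate 2 or 3 (0.0543 to 0.0650 in the other omissions). None of the 4 other ferlins was called, with Fer1l6 furthest from 0 at 2.39 ± 0.17 in beating and 2.34 ± 0.13 in non-beating SVF (0.05, adjusted p = 0.847). The mean percentiles of these 4 ferlins in the groups were 25.9 to 46.9. With signals this low, the lack of a call does not show that they were unchanged. None of 9 anoctamins was called, and several of them also ranked in the lower part of their arrays in both groups. Ano6, a phospholipid scramblase, had the widest difference among the rows used, at 6.18 ± 0.53 in beating and 7.01 ± 0.04 in non-beating SVF (-0.83, adjusted p = 0.0838). It passed with dim rows left out (0.0461), with values under the array median raised to it (0.0237) and without beating replicate 4 (0.0453). The dimmer row of Ano3, not used for the list, gave -1.02 (adjusted p = 0.0751).

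**Figure D3:**
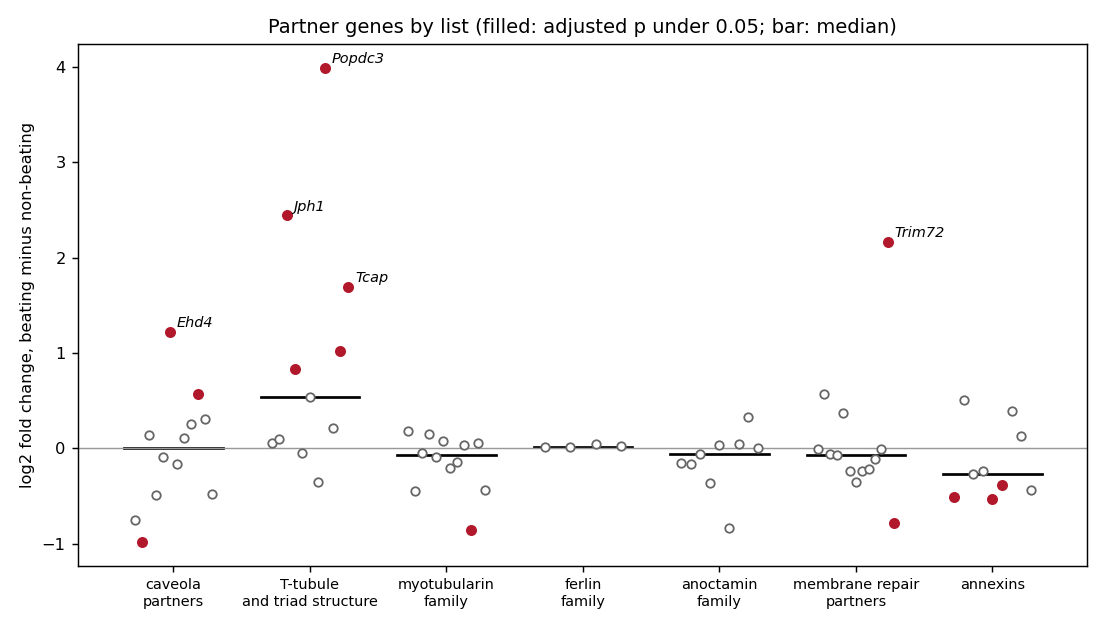
Log2 fold change of 69 partner genes, beating minus non-beating, by list. Filled points passed an adjusted p of 0.05 and bars mark the list medians, which lie at 0.54 for the T-tubule and triad list and at -0.26 for the annexins.

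The round pool of day 14 was set beside both groups of day 28, with 1 array and no test. It came from 6 cells, so number of cells, culture day and cell type cannot be told apart in its values. Its level was above all 8 other arrays for 2 of the 9 genes and below all 8 for 5, whereas 46.4% of all rows lay above and 24.4% below all 8. Cav3 stood at 5.82 in the round pool, against means of 5.23 in beating and 3.98 in non-beating SVF. Bin1 stood at 8.25 in the round pool, against 7.58 in beating and 4.93 in non-beating SVF. As deposited, both exceeded the highest beating array. Both stayed above the beating mean when the 9 arrays were centred on their medians (differences of 0.20 for Cav3 and 0.28 for Bin1) or quantile-normalised (1.63 and 1.43). After centring, however, neither exceeded the highest beating array, and Bin1 fell short by a narrow margin.

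Cavin4 stood at 9.86 in the round pool, within the beating range of 9.41 to 10.10 and 6.21 above the non-beating mean. Against the beating mean it was 0.19 higher as deposited and differed by -0.20 after centring, so its order against beating SVF is not settled. Dysf stood at 4.49 in the round pool, between means of 4.74 in beating and 4.26 in non-beating SVF. Its differences from the beating mean (-0.25) and from the non-beating mean (0.23) turned under quantile normalisation (0.12) and under centring (-0.22).

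Cav1, Cav2, Cavin1, Myof and Mtm1 were lower in the round pool than on any of the other 8 arrays. Cav1 stood at 4.34, against 6.75 in beating and 7.44 in non-beating SVF. Cav2 stood at 2.85 in the round pool, against 5.44 in beating and 5.97 in non-beating SVF. Cavin1, Myof and Mtm1 stood at 4.26, 4.67 and 3.41 in the round pool, with differences of -1.65, -2.69 and -0.61 from their non-beating means. All 5 stayed below both group means under centring and under quantile normalisation. Within its own array the round pool still had Cav1 at percentile 70.7, Cavin1 at 69.0 and Myof at 76.9, whereas Mtm1 (46.4) and Cav2 lay under the array median. Cav2 ranked at percentile 29.0 in the round pool, 78.9 in beating and 82.8 in non-beating SVF, whereas Cavin4 ranked at 98.4 in the round pool, 97.4 in beating and 59.4 in non-beating SVF. The summed fibroblast, smooth muscle, adipocyte and endothelial markers were lower in the round pool than in any other sample, and their part in these values was not tested. A sum follows its brightest genes. In the round pool, 5 of 9 adipocyte and 5 of 10 endothelial markers lay above their beating means. For smooth muscle and fibroblast markers this held for 2 of 10 and 0 of 10.

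Of the 69 partners, 17 lay above all 8 other arrays in the round pool and 34 below, beside 46.4% and 24.4% of all rows. Popdc3 and Stac3 were among the 17, at 8.59 and 4.43 in the round pool. After the arrays were centred on their medians, Stac3 no longer exceeded the highest beating array. Trim72 stood at 3.98, between the groups. All 9 annexins were below their beating means in the round pool, and 8 of them below all 8 arrays.

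**Figure D4:**
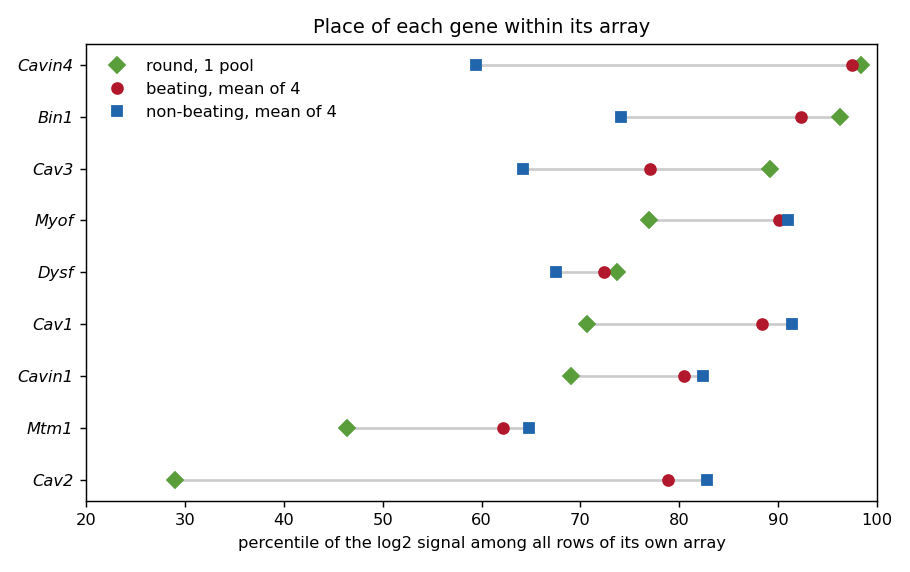
Percentile of each gene's log2 signal among all rows of its own array, for the round pool (diamonds), the beating mean (circles) and the non-beating mean (squares). Cavin4, Bin1 and Cav3 rank higher in the round pool and in beating SVF than in non-beating SVF, and Cav2 ranks at percentile 29.0 in the round pool.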

How the data were processed

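Total RNA of 4 beating and 4 non-beating SVF samples and 1 round pool was amplified and hybridised to Affymetrix Mouse Gene 1.0 ST arrays. The deposited log2 signals were used as they stand; the method that made this table is not given in the sources used here. Per the study's methods, the authors log2-scaled, normalised and mean-centred their data in BRB-ArrayTools, but the deposited table shows no such centring of genes. No column was left unused.

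Of 33323 rows, 21789 carry 1 symbol in the platform annotation, 1621 several and 9913 none. Symbols were brought to GRCm38 names through the gene number for 21698 rows. A gene with several rows is represented by the row with the highest mean over the 8 arrays. Coordinates and promoters are from RefSeq (GRCm38.p6), which gave promoter windows for 9 of the 10 genes.

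Groups came from the sample labels. Beating and non-beating SVF were compared by a linear model per row in R 4.3.3, using lmFit and then eBayes of limma 3.58.1. Tests were two-sided, and p-values were adjusted over all rows by the method of Benjamini-Hochberg at a threshold of 0.05. The fit was tested on simulated data. Precision is limited by the number of arrays. The round pool entered no test. The 10 genes, the partner lists and the marker lists were chosen with earlier results of these data known. All 10 genes are named, and from each partner list up to 4 called genes with the largest change and no overlap between groups, or otherwise the gene furthest from 0. Alternatives covered scaling, filters on dim values, the variance model, array weights, the methods' two-sample test, a replicate block, the choice of row and leaving out each array.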

Additional observations from a re-analysis of the deposited data

Results flagged for a closer look

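The Cav3 signal of non-beating replicate 3 was 3.79, apart from the other 3 non-beating arrays, of which the nearest was at 4.02. The gap was 0.876 of the range of its group, above Dixon's critical value for 4 samples. Of the 9 genes in 2 groups, 18 sets of 4 were looked at, and chance marks about 1 in 20. The round pool, which enters no comparison with a test, had Cav3 at 5.82, above the highest of the other 8 arrays (5.55), and Bin1 at 8.25, above their highest (7.84). Over all rows, 46.4% lay above all 8 other arrays in the round pool. With the arrays centred on their medians, neither gene exceeded the highest beating array.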

How the results depend on the processing

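Cavin4, Bin1 and Cav3 kept their direction and their call in all leave-one-out fits. Without 1 array at a time, 3 to 4 of the 9 genes were higher and 0 to 0 lower, 569 to 914 rows were higher and 438 to 1023 lower, and 5 to 7 partners were higher and 2 to 7 lower. Raising values under the array median to that median called 16156 rows higher and 2934 lower, with 27 partners higher, 13 lower and 1 of the 9 genes lower (Cav1): rows at the floor take the arrays' median difference with almost no spread. The methods' two-sample test with adjustment called 491 rows higher and 375 lower, with 5 and 1 partners. At its own threshold (unadjusted p under 0.0001, 1.5-fold prefilter), applied here to the deposited values, it called 195 rows higher and 26 lower. These are not the study's counts, and the paper reports more genes in both directions. At that threshold 2 of the 9 genes were higher, Cavin4 and Bin1, so Cav3 and Dysf lost their calls. Of the partners, 3 were higher and 0 lower. Without dim rows, 13 partners were higher. With the replicate number as a block, 637 rows were higher and 645 lower, 4 of the 9 genes and 8 partners were higher and 3 partners lower. Whether the numbers pair the samples was not settled. Same-number correlations lay between -0.01 and 0.03, and 0 of 4 beating arrays correlated best with their own number. Correlations between unlike numbers lay between -0.05 and 0.08, so no numbering stood out and this measure cannot decide the question. Fer1l6 turned to -0.011 under median centring, to -0.0050 without beating replicate 1 and to -0.019 without non-beating replicate 3. In the round pool, Cavin4 against beating turned to -0.20 under centring, and Dysf turned to 0.12 against beating under quantile normalisation and to -0.22 against non-beating under centring. For the other changes the cause was not tested. Signals near the array background limit what a fold says about transcripts.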
